A study of Xenopus laevis with 9 samples.

Results

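Mitochondrial ribosomal protein mRNAs encode the protein subunits of the mitoribosome, the machine that translates the few proteins encoded by mitochondrial DNA. All of these subunits are encoded in the nucleus, translated in the cytosol and imported, so their mRNAs are cytoplasmic RNAs, and some are translated at the mitochondrial surface. Eggs hold a large maternal store of mitochondria that is shared out among the cells of the early embryo. The 7 mRNAs described here were the listed mitochondrial ribosomal protein symbols, 3 of the large subunit (mrpl30.S, mrpl48.S and mrpl22.L) and 4 of the small subunit (mrps31.S, mrps33.L, mrps35.L and mrps11.L), joined by gene identifier to the count table of 44478 genes. All 7 passed the filter on low counts, as did 20148 genes in all. They were chosen by name and not by their values, although earlier results of these data were known.

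RNA was sequenced from cytoplasmic extract of *Xenopus laevis* eggs before filtration (input, time 0) and from the filtrate of that kind of extract after it was spun through membranes with a 30 nm particle cutoff, early at low pressure (T1) and late at high pressure (T2), with 3 biological replicates of each condition. The egg donors were wildtype frogs aged 1 to 5 years, the eggs were naturally arrested in metaphase, and the 3 conditions shared cytochalasin D, nocodazole, the protease inhibitors leupeptin, pepstatin and chymostatin, sucrose and a mesh prefiltration. The labels give low pressure with T1 and high pressure with T2, so time and pressure cannot be told apart. The comparison with the input asks which RNAs pass the pores freely and which are retained, and the comparison of T2 with T1 asks which pass late.

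Between 23509338 and 37265313 reads were counted on genes in the T1 libraries, between 60330615 and 93451602 in the T2 libraries, and between 65503682 and 90000652 in the input libraries. Unmapped reads made up 12.4% to 20.2% of the reads at T1, against 7.23% to 7.71% in the input. The 10 egg and oocyte markers were all above a mean of 1 CPM in every condition, with summed levels of 2049 to 3208 CPM at T1 and 2045 to 2423 CPM in the input. Of the 3 markers of other cells, the epithelial keratins krt8.1.S and krt18.1.S were above a mean of 1 CPM at T1. These keratin mRNAs are also maternal in frog eggs, so they do not mark other cells alone. The immune gene cd74.L had no read at T1, against 182, 1 and 61 reads in the input and 3, 534 and 0 reads at T2. In the input and at T2 all 3 markers of other cells were above a mean of 1 CPM. The sum of these 3 markers was 33.1 to 89.2 CPM at T1 and 15.5 to 30.8 CPM in the input. The part of other cells in the results was not tested. CPM stands for counts per 1000000 reads on genes, here with library sizes scaled by the TMM method. A CPM value is a share of the library, so less of one RNA and more of the others cannot be told apart, and levels are not compared between genes because transcript lengths were not used.

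The members went in different directions in the early filtrate. At T1, mrpl30.S, mrpl48.S and mrps31.S were each at or above their mean input level in every library, as were 18.2% of all genes tested. In contrast, mrps33.L had 1 read in every T1 library. At most 3 reads in every T1 library was found for 16% of all genes. The mRNAs of mrpl22.L, mrps35.L and mrps11.L were near absent in some T1 libraries and at or above the input level in another. At most 3 reads in 1 or 2 T1 libraries beside such a level in another was found for 22% of all genes. In edgeR's quasi-likelihood test with an adjusted p-value under 0.05, 0 of the 7 were called at T1, where 11.5% of all genes tested were. DESeq2's Wald test called 3 of the 6 members to which it gave an adjusted p, where it called 30.7% of the genes with one. At T2 the libraries of 6 members overlapped those of the input, and for mrpl48.S all 3 lay above, as for 14.1% of all genes.

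**Figure D1:**
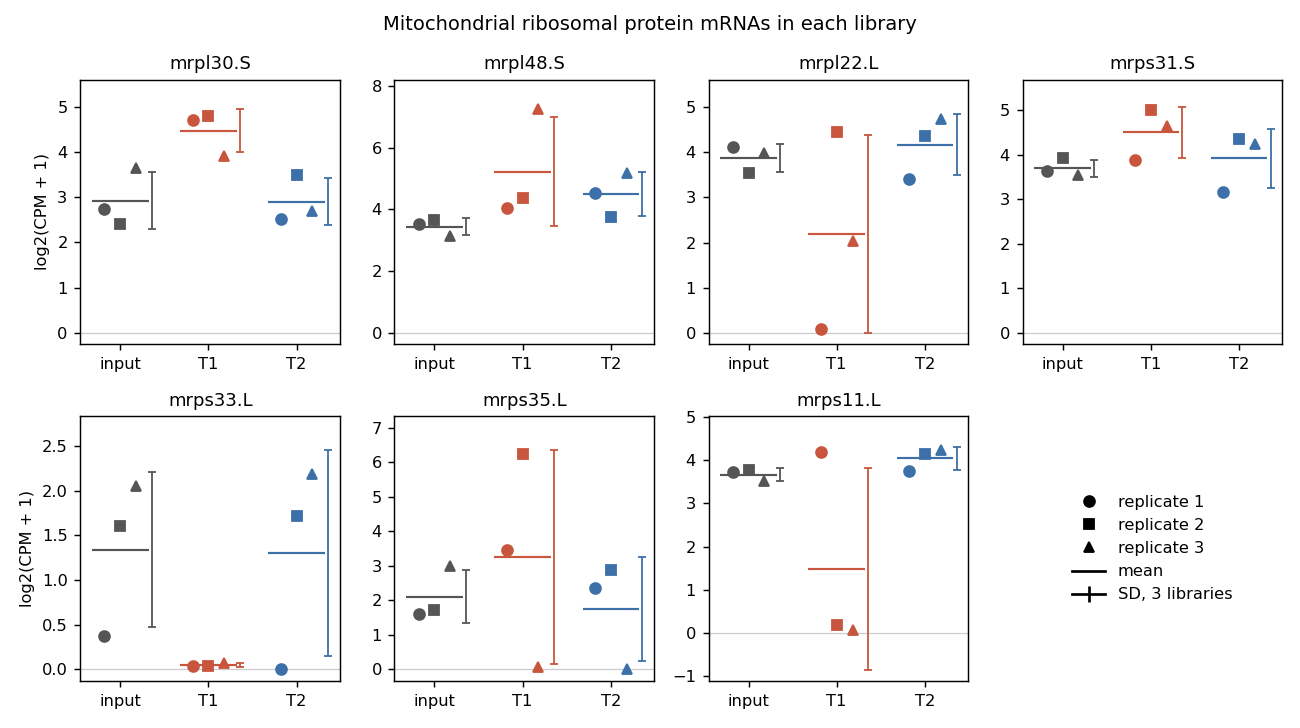
Level of each of the 7 mRNAs in each library as log2(CPM + 1), with input, T1 and T2 on the horizontal axis, 1 marker shape per replicate number, a line at the mean and a bar of 1 SD over the 3 libraries. For mrpl22.L, mrps35.L and mrps11.L the T1 points run between about 0 and values above every input library, and for mrps33.L all 3 T1 points lie near 0.

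Among the large subunit mRNAs, mrpl30.S encodes a protein with a counterpart in bacterial ribosomes and lies on chromosome 2S from 103745057 to 103752425 of the v10.1 assembly. It had 25.3, 26.8 and 14.2 CPM in the T1 libraries (919, 940 and 264 reads), against 5.66, 4.31 and 11.5 CPM in the input libraries. All 3 T1 values were above all 3 input values. The mean was 22.1 ± 6.91 CPM at T1 and 7.15 ± 3.82 CPM in the input (SD, n = 3 each), and the log2 fold change was 1.63 (SE 0.99, edgeR adjusted p = 0.288). The unadjusted edgeR p was 0.131, and DESeq2's Wald test called the gene (1.69, adjusted p = 0.025).

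The mitochondria-specific large subunit protein encoded by mrpl48.S has no bacterial counterpart, and its gene spans 165568640 to 165583219 on chromosome 2S. Its mRNA had 15.5, 19.8 and 151.67 CPM at T1, against 10.4, 11.7 and 7.82 CPM in the input. The T1 libraries were again all above the input libraries, but replicate 3 stood far above replicates 1 and 2, with 2829 reads where the mean input level corresponds to 186 reads at that depth. The log2 fold change of 2.64 (SE 0.93) had an edgeR adjusted p of 0.0818. It was 0.82 (edgeR adjusted p = 0.401) without T1 replicate 3 and 2.88 (adjusted p = 0.00758) in DESeq2's Wald test. Without T1 replicate 1, where 18.8% of all genes were called, it was 3.14 (edgeR adjusted p = 0.0345). A fit with the replicate number as a further term gave 1.86 (SE 0.93, edgeR adjusted p = 0.2175).

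The third large subunit mRNA, mrpl22.L, encodes the counterpart of a bacterial protein that lines the exit tunnel of the nascent chain. It had 0.0552, 20.8 and 3.11 CPM at T1, against 16.3, 10.6 and 14.8 CPM in the input. T1 replicate 1 held 2 reads, with an exact Poisson upper limit of 7.22, where the mean input level corresponds to 505 reads. T1 replicate 2 held 731 reads and was above all of the input libraries. The groups therefore overlapped, and the log2 fold change was -0.80 (SE 1.44, edgeR adjusted p = 0.758), or -3.09 without T1 replicate 2. A fit with the replicate number as a further term gave -2.04 (SE 1.94, edgeR adjusted p = 0.523).

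In the small subunit, mrps31.S encodes a mitochondria-specific protein and spans 141984348 to 142021411 on chromosome 2S. Of the small subunit mRNAs it was the only one with more than 3 reads in every T1 library, at 13.7, 30.8 and 23.8 CPM, against 11.4, 14.1 and 10.7 CPM in the input. The lowest T1 library lay inside the input range. The log2 fold change was 0.92 with a 95% interval of -0.91 to 2.74 (edgeR adjusted p = 0.497).

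The mRNA of mrps33.L, another mitochondria-specific protein, from chromosome 3L (5849169 to 5852900), had 1 read in each of the 3 T1 libraries, against 20, 151 and 296 reads in the input libraries (0.294, 2.04 and 3.15 CPM). At the mean input level the T1 depths correspond to 66, 64 and 34 reads, and the exact Poisson upper limit of 1 read is 5.57. Over the pooled reads, 3 at T1 and 467 in the input, the T1 level was 0.0169 of the input level (exact 95% interval 0.00346 to 0.0495), or 59.4-fold lower (20.2-fold to 288.9-fold), an interval that covers counting error only. The edgeR log2 fold change was -5.60 (SE 2.50), with an unadjusted p of 0.0476 and an adjusted p of 0.149. Of 17 alternatives, 2 called it. DESeq2's Wald test gave -5.56 (adjusted p = 0.0386) and called 30.7% of the genes with an adjusted p. The edgeR fit with only the T1 and input libraries gave -5.57 (adjusted p = 0.0256) and called 21.3% of all genes. A fit with the replicate number as a further term gave -4.81 (SE 2.78, edgeR adjusted p = 0.279).

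The largest swing within a condition belonged to mrps35.L, whose product is a further mitochondria-specific small subunit protein (chromosome 3L, 16489729 to 16508505). It had 9.96, 75.0 and 0.0536 CPM at T1, against 2.02, 2.32 and 6.94 CPM in the input. In reads these T1 values were 361, 2633 and 1, where the mean input level corresponds to 136, 132 and 70. So 2 T1 libraries were above the highest input library and the third was near 0. The log2 fold change was 2.91 (SE 2.05, edgeR adjusted p = 0.364) and 0.37 without T1 replicate 2. With the replicate number as a further term in the fit it was -0.63 (SE 4.24, edgeR adjusted p = 0.942).

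The product of mrps11.L is the counterpart of a bacterial protein on the platform of the small subunit, and its gene spans 116131086 to 116167250 on chromosome 3L. Its mRNA had 17.3, 0.142 and 0.0536 CPM at T1, against 12.2, 12.8 and 10.4 CPM in the input, where it was the most even of the 7. T1 replicates 2 and 3 held 5 reads and 1 read, with exact Poisson upper limits of 11.7 and 5.57, where the mean input level corresponds to 414 and 220 reads. T1 replicate 1 held 626 reads, above the 427 reads of the mean input level. The log2 fold change was -1.02 (SE 1.65, edgeR adjusted p = 0.731). It was -6.86 (edgeR adjusted p = 0.008) without T1 replicate 1, a fit that called 18.8% of all genes. Over all fits that left out 1 library it ran from -6.86 to -0.44. A fit with the replicate number as a further term gave -3.37 (SE 2.68, edgeR adjusted p = 0.435).

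Near-absent values of this kind were common in the T1 libraries as a whole. Of the 21 member values at T1, 6 were at most 3 reads, which is 28.6%, against 29.8% of the values of all genes tested. By gene, 4 of the 7 members had such a value in 1 or more T1 libraries. This was so for 43.7% of all genes and for 33.2% of those at least as abundant in the input as the lowest member. In the input 0 of the 7 did, against 7.19% of all genes and 0.912% of those at least as abundant. The pattern of at most 3 reads in 1 or 2 T1 libraries together with a level at or above the mean input in another was shown by 3 of the 7 members (mrpl22.L, mrps35.L and mrps11.L), against 22% of all genes tested and 19.7% of the 16664 genes at least as abundant as the lowest member. At most 3 reads in all 3 T1 libraries was found for mrps33.L only, against 16% of all genes and 7.01% of those at least as abundant. T1 replicate 3 had the lowest depth, the highest share of unmapped reads and the most genes at 3 reads or fewer (37.9%, against 24% and 27.5% in T1 replicates 1 and 2), and the part of depth and library quality in these values was not tested.

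As counts, 4 members had a positive and 3 a negative log2 fold change at T1, and the median of the 7 was 0.92, against -0.09 over all genes tested, 48% of which were positive. At an unadjusted p-value under 0.05 there was 1 higher member (mrpl48.S, against 13.6% of all genes) and 1 lower (mrps33.L, against 18.8%). The 3 T1 libraries were all above the 3 input libraries for 2 members (15.7% of all genes) and all below for 1 (27.8%). The median relative to the mean input differed in sign between single T1 libraries, at 0.51, 0.92 and -1.42 in replicates 1, 2 and 3. In an edgeR fit with the replicate number as a further term, 3 members were positive and the median was -0.63. In that fit 0 members had an unadjusted p-value under 0.05, as did 5665 of the 20148 genes tested.

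**Figure D2:**
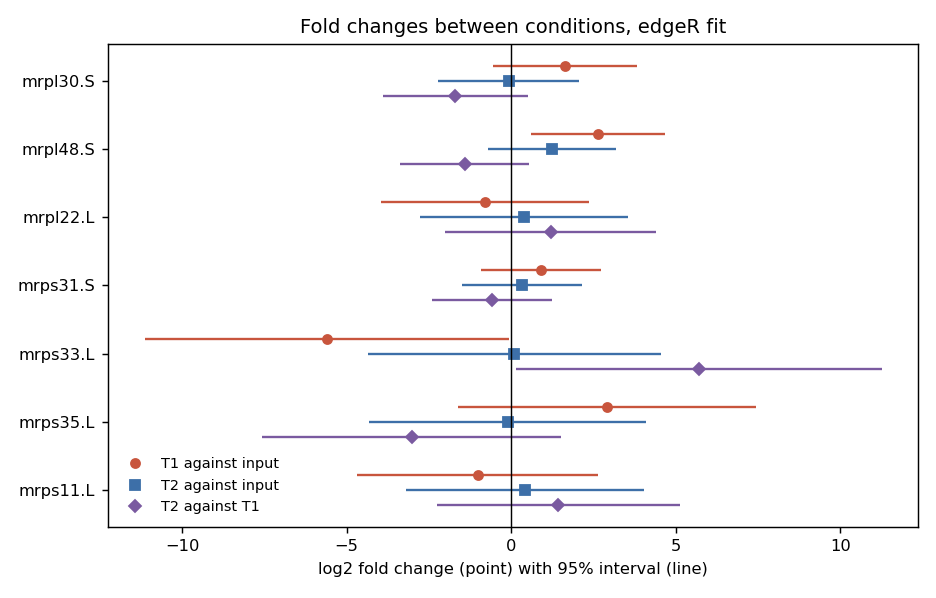
Log2 fold change of each mRNA (points) with its 95% interval (lines) from the edgeR fit, for each pair of conditions. The intervals of 2 members lie off 0 for T1 against input, mrpl48.S above and mrps33.L below, before adjustment over all genes, and every T2 against input interval crosses 0.

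In the late filtrate, 0 of the 7 members and 0% of all genes tested were called against the input by edgeR. At an unadjusted p-value under 0.05 these were 0 members and 7.79% of all genes, and DESeq2 called 0 members and 250 genes (3.3% of the genes with an adjusted p), giving no adjusted p for 6 of the 7. Of the 3 members with both near-absent and high T1 libraries, mrps35.L alone still had a near-absent library at T2. The mRNA of mrps11.L had 12.5, 16.8 and 17.8 CPM at T2, against 12.2, 12.8 and 10.4 CPM in the input (log2 fold change 0.41, SE 1.64, edgeR adjusted p = 0.9999). The mRNA of mrpl22.L had 9.66, 19.5 and 25.8 CPM at T2, against an input mean of 13.9 ± 3.0 CPM (SD, n = 3), with a log2 fold change of 0.40 (SE 1.43, edgeR adjusted p = 0.9999).

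At T2, mrps33.L and mrps35.L each had 1 library with at most 1 read. So 2 of the 7 members were at 3 reads or fewer in a T2 library. This was so for 21.3% of all genes and for 8.31% of those at least as abundant as the lowest member. No read of mrps33.L was found in T2 replicate 1, where the mean input level corresponds to 184 reads and the exact Poisson upper limit of 0 reads is 3.69. T2 replicates 2 and 3 held 212 and 213 reads, or 2.29 and 3.55 CPM. For mrps35.L it was T2 replicate 3 that held 1 read, where 225 would correspond to the mean input level, with 4.09 and 6.34 CPM in replicates 1 and 2. Their log2 fold changes from the input were 0.09 for mrps33.L (SE 2.02) and -0.11 for mrps35.L (SE 1.90), both with an edgeR adjusted p of 0.9999. Both mRNAs were thus at 3 reads or fewer in T1 and T2 libraries of 1 shared replicate number, which held for 17.6% of all genes tested and 6.79% of those at least as abundant as the lowest member. Given its low T2 library, this was fixed in advance for mrps33.L, which had 1 read in every T1 library. The shared number of mrps33.L was 1, whose input library also held the fewest reads of this mRNA, 20.

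The 3 members with more than 3 reads in every library had log2 fold changes from the input of -0.07 (mrpl30.S), 1.23 (mrpl48.S) and 0.33 (mrps31.S) at T2. The difference between T2 and T1 was called by edgeR for none of them. The level of mrpl30.S was 4.70, 10.2 and 5.53 CPM at T2, against 25.3, 26.8 and 14.2 CPM at T1. All 3 T2 values were below all 3 T1 values, as for 7.73% of all genes, with a log2 fold change of -1.70 (SE 1.00, edgeR adjusted p = 0.343), and DESeq2's Wald test called the difference (-1.81, adjusted p = 0.0237), as it did for 19.2% of the genes with an adjusted p. The level of mrps31.S was 7.94, 19.5 and 18.0 CPM at T2, against an input mean of 12.1 ± 1.78 CPM. For mrpl48.S the T2 libraries had 22.2, 12.6 and 35.6 CPM, against 10.4, 11.7 and 7.82 CPM in the input, and the 95% interval of the log2 fold change was -0.72 to 3.18 (edgeR adjusted p = 0.9999).

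The median log2 fold change of the 7 at T2 was 0.33, against 0.14 over all genes tested. Of the 7, 5 were positive and 2 negative, where 57.1% of all genes were positive. Between T2 and T1 it was -0.59, against 0.09 over all genes, with 3 positive and 4 negative, where 52.8% of all genes were positive, and the median of the members was 0.41 without T1 replicate 3. No member was called between T2 and T1, where 0.0993% of all genes were. The log2 fold change of mrps33.L between T2 and T1 was 5.70 (SE 2.51, unadjusted p = 0.0454, edgeR adjusted p = 0.213), the only member with an unadjusted p under 0.05 in that comparison, which 14.6% of all genes passed in this direction. That of mrps11.L was 1.43 (edgeR adjusted p = 0.698) and 7.22 (adjusted p = 0.0162) without T1 replicate 1, where 9.43% of all genes were called. T1 libraries enter both the comparison with the input and that with T2, so a value that stands apart at T1 moves both.

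Over the members as a whole, the spread between replicates was widest at T1. The SD of log2(CPM + 1) over the 3 libraries had a median over the members of 0.31 for the input, of 1.77 for T1 and of 0.68 for T2. Over all genes tested these medians were 0.28, 0.97 and 0.56. At T1 it ranged up to 3.09 for mrps35.L, with 2.34 for mrps11.L and 2.19 for mrpl22.L, while mrpl30.S had 0.48 and mrps31.S had 0.57. The low SD of mrps33.L at T1, 0.02, is that of 3 libraries with 1 read each.

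**Figure D3:**
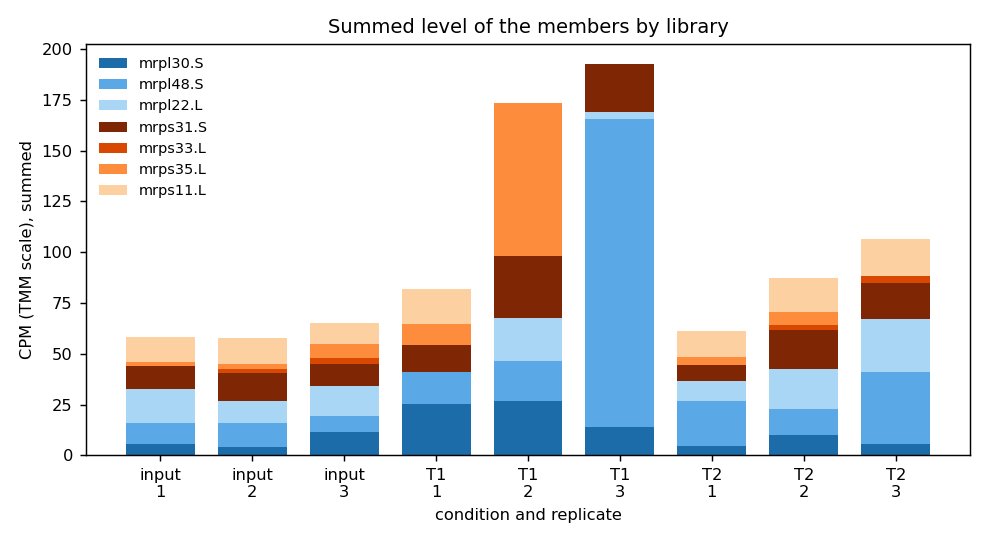
Summed level of the 7 mRNAs in each library in CPM on the TMM scale, stacked by member, with 3 replicates each of input, T1 and T2 on the horizontal axis. The bars stand at 57.8 to 65.4 CPM in the input and 81.8 to 193 CPM at T1, where single members make up much of replicates 2 and 3.

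Summed over the 7 mRNAs, the input libraries held 58.3, 57.8 and 65.4 CPM, the T1 libraries 81.8, 173 and 193 CPM, and the T2 libraries 61.1, 87.3 and 106 CPM. The make-up of the sum was not the same in the T1 libraries. Reads of mrpl30.S were the largest part of T1 replicate 1 (31.0%), reads of mrps35.L that of replicate 2 (43.3%) and reads of mrpl48.S that of replicate 3 (78.6%). In the input no member made up more than 28.0% of the sum. These shares are of reads and are not corrected for transcript length.

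Over the 9 libraries the members followed each other weakly. Pearson's correlation of log2(CPM + 1) between members ranged from -0.68 (mrps31.S with mrps11.L) to 0.62 (mrpl30.S with mrps35.L) over the 21 pairs, with a median of -0.06 and 10 pairs above 0. These correlations are descriptions over libraries that share depth and condition. Among 1981 named genes that passed the filter, the closest to mrps11.L was kif3a.L, a motor subunit of kinesin-2 type, with r = 0.99. It held 806, 5 and 3 reads in the T1 libraries, where mrps11.L held 626, 5 and 1.

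The closest to mrps35.L was stard10.S, a lipid transfer protein gene (r = 0.92), with 822, 2868 and 6 reads at T1 beside the 361, 2633 and 1 reads of mrps35.L. That of mrpl48.S was spryd4.S (r = 0.94), which likewise had its highest level in T1 replicate 3, at 206 CPM. For mrpl22.L it was picalm.S, a clathrin assembly gene (r = 0.92), for mrpl30.S ppp1r3c.2.L, which bears the name of a glycogen-targeting phosphatase subunit (r = 0.92), for mrps31.S zdhhc12.L, a palmitoyltransferase (r = 0.92), and for mrps33.L saraf.L, a regulator of store-operated calcium entry (r = 0.90). Spearman's rank correlation was 0.47 for mrpl22.L with picalm.S and 0.83 to 0.92 for the other closest genes. The second closest to mrps31.S was mrpl18.L (r = 0.90). These nearest genes were picked as the highest of many correlations over 9 libraries, and a high value is fixed in part by that choice.

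Neighbouring genes gave a further view of single loci, since RNAs from adjacent genes are separate molecules that were counted in the same libraries. The genes mrps11.L and mrpl46.L overlap by 11 bases at 116167240 to 116167250 on chromosome 3L and encode a protein of each mitoribosomal subunit. At T1, mrpl46.L had 470, 519 and 1 reads, where mrps11.L had 626, 5 and 1, so the neighbours were both near 0 in replicate 3 and differed in replicate 2. At T2, mrpl46.L had 238, 1 and 12 reads, while mrps11.L had 1254, 1556 and 1067. In the input mrpl46.L had 149, 77 and 98 reads.

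A gap of 34 bases separates mrps35.L from LOC108710184, which the symbol table pairs with human KCNQ1, a potassium channel gene. Its T1 libraries had 0, 2 and 872 reads, where mrps35.L had 361, 2633 and 1, so the high and the near-absent libraries of the neighbours were opposite. The next gene to mrpl48.S, ndufc2.S, encodes a subunit of respiratory complex I and lies 189 bases away. It had 40.1, 39.9 and 83.5 CPM at T1, against 2.71, 3.21 and 7.27 CPM in the input, and its log2 fold change was 3.63 (SE 0.76, edgeR adjusted p = 0.0158). The call was lost without input replicate 1 (adjusted p = 0.0944) or 2 (0.0939). Next to mrps33.L, at a distance of 4990 bases, braf.L, a kinase of the MAP kinase pathway, had a log2 fold change of 2.05 at T1 (SE 0.38, edgeR adjusted p = 0.00961), where mrps33.L held 1 read per library. Without any 1 of the input libraries its adjusted p was 0.0545 to 0.0703. Of all genes tested, 6.44% were called higher at T1. Further neighbours were not called at T1. These were det1.L beside mrps11.L (-0.46, edgeR adjusted p = 0.486) and LOC108710051 beside mrpl48.S (0.13, 0.941). The third was foxo1.S (-10.2, 0.0751), 100621 bases from mrps31.S, with 0 reads in every T1 library. The nearer neighbour of mrps31.S, LOC108709137 at 434 bases, is not reported here.

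An overlap of 138 bases joins mrpl22.L (chromosome 3L, 26610128 to 26628739) to LOC108710817, which the table pairs with human GEMIN5. Its log2 fold change at T1 was 0.50 (edgeR adjusted p = 0.50). The library kit keeps strand, but the strand setting of the counting is not given in the sources used here, so reads in the shared bases cannot be assigned with certainty. *X. laevis* carries many genes in L and S copies on its paired subgenomes, and the gene table lists the other copy for 3 of the 7 members (mrps31.L, mrps33.S and mrps11.S). These copies are not analysed here, and reads that fit both copies could be lost from the counts. Multimapping reads made up 4.06% to 6.76% of reads at T1, against 1.69% to 1.85% in the input and 1.98% to 2.85% at T2. Their part in the member values was not tested.

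Among the other mitoribosomal mRNAs in the symbol table, 3 more of the large subunit were measured. For mrpl1.L the levels were 53.4, 40.6 and 25.8 CPM at T1, against 32.4, 24.8 and 36.0 CPM in the input, with a log2 fold change of 0.36 (SE 0.52, edgeR adjusted p = 0.689). For mrpl18.L all 3 T1 libraries (45.8, 89.2 and 52.3 CPM) lay above the input libraries (29.9, 29.7 and 30.5 CPM), with a log2 fold change of 1.06 (SE 0.48, edgeR adjusted p = 0.159) that DESeq2's Wald test called (1.13, adjusted p = 0.018). The value of mrpl46.L was 2.7 (SE 2.12, edgeR adjusted p = 0.427). By edgeR 0 of the 3 were called, and their T2 values against the input ran from -0.73 to 0.35.

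The 13 mitochondrial translation and RNA maturation factors also lay on both sides of 0 at T1. Of them, 6 had a positive and 7 a negative log2 fold change, 0 were called, and the median was -0.58. The lowest was mtfmt.L, the formyltransferase that makes the initiator tRNA of mitochondrial translation, with 0, 1 and 0 reads at T1, against 261, 581 and 250 reads in the input. Its pooled T1 level was 0.0024 of the input level (exact 95% interval 6.08e-05 to 0.0134, counting error only), and its edgeR adjusted p was 0.0578. It was called by DESeq2's Wald test (adjusted p = 0.000382) and with only the T1 and input libraries in the fit (0.0255). At T2 mtfmt.L held 431, 1137 and 2 reads. The highest was nars2.S, a mitochondrial asparaginyl-tRNA synthetase, at 2.68 (SE 1.39, edgeR adjusted p = 0.206), with 335, 336 and 955 reads at T1 and 93, 324 and 486 in the input. DESeq2's Wald test called it (2.90, adjusted p = 0.0362), and it was 1.37 (edgeR adjusted p = 0.497) without T1 replicate 3.

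Cytosolic ribosomal protein mRNAs, which build the ribosome that translates all of these messages, lay mostly on one side. At T1, 15 of 16 had a positive log2 fold change, 9 rose at an adjusted p-value under 0.05 and 0 fell, with a median of 2.62, where 6.44% of all genes tested rose. The number called was 5 without any 1 of the input libraries and 14 with DESeq2. Over all genes, 420, 417 and 590 were called without input replicates 1, 2 and 3, against 2320 in the main fit. DESeq2 called 30.7% of the genes with an adjusted p. At T2, all 16 were positive, 0 were called by edgeR (2 by DESeq2), and the median was 1.45. The members' medians at T1 and T2 stood at 0.92 and 0.33. Whether the lists differ from each other was not tested.

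**Figure D4:**
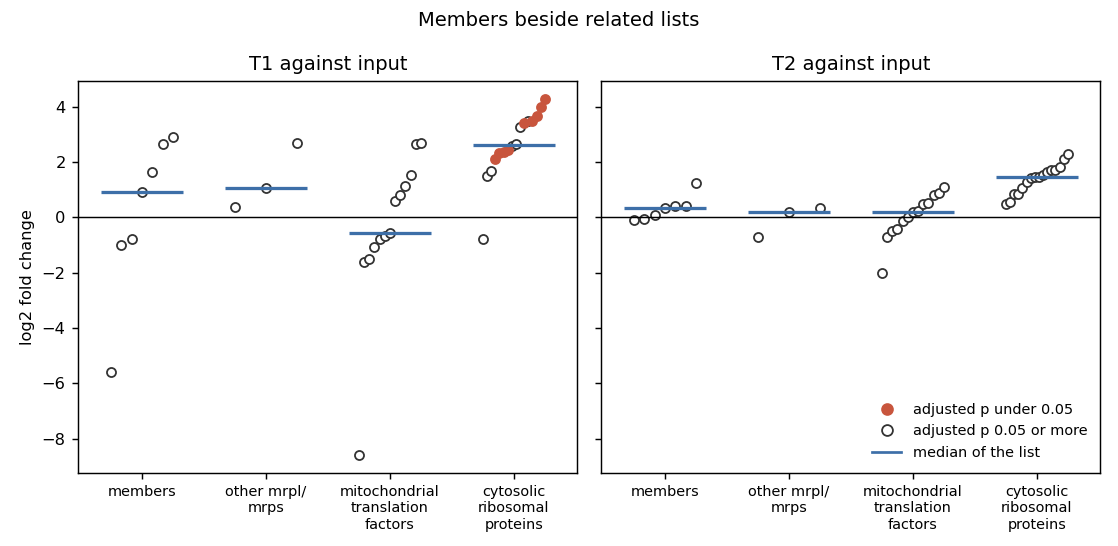
Log2 fold change from the edgeR fit for T1 against input (left) and T2 against input (right), 1 point per gene, for the 7 members, 3 other mitoribosomal protein mRNAs, 13 mitochondrial translation factors and 16 cytosolic ribosomal protein mRNAs, with filled points at an adjusted p-value under 0.05 and a line at the median of each list. Filled points occur for cytosolic ribosomal proteins at T1 only, and the members run from -5.60 to 2.91 at T1.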

How the data were processed

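RNA-seq libraries of 3 conditions with 3 replicates each were analysed. The authors trimmed reads with Trim Galore 0.6.10, aligned them with STAR 2.7.10a to the *X. laevis* v10.1 genome and deposited raw read counts per gene. A deposited table of normalized values (signal, counts divided by DESeq2 1.32.0 size factors by the authors) gave whole reads for 100% of values within 0.01. These differed from the raw counts for 4527 of its 25617 genes, and for 1 member, mrpl22.L, in 1 library by 22 reads. The 4 summary rows of the alignment (unmapped, multimapping, no feature at 19.2% to 36.6% of reads, ambiguous) stayed out of library sizes and tests. The no-feature share was 19.2% to 24.8% at T1, 24.5% to 31.7% at T2 and 32.6% to 36.6% in the input.

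The counts were tested with edgeR 4.0.16 (R 4.3.3; TMM, filterByExpr with a minimum count of 10 and a total of 15, quasi-likelihood F test, condition as the only term, all 9 libraries), with Benjamini-Hochberg adjustment over 20148 genes and a threshold of 0.05. Each SE is approximate (|log2 fold change| over the root of the F statistic). Alternatives, DESeq2 1.42.0 among them, are given in the closing section. The test was also run on simulated counts. These were drawn from the kind of model that the test fits, so they do not check that model on these libraries. The p-values measure the spread between these libraries. Intervals and limits on counts (95%, exact Clopper-Pearson or Poisson) cover counting error only, because reads are not independent molecules. No floor was applied to the reads in them.

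Symbols came from the part of the study's source table in hand (1999 named entries), and positions from the RefSeq gene table of the same assembly. Named are all members, every other mitoribosomal symbol in that part, and the translation factors that were called or otherwise the highest and lowest. The gene most like each member and some, not all, neighbouring genes are also named. The members and lists were chosen with earlier results of these data known.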

Additional observations from a re-analysis of the deposited data

How the results depend on the processing

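Under 17 alternatives, the count of called members at T2 against input was 0 throughout. At T1 against input it was 3 by DESeq2's Wald test, 1 when the fit held the compared conditions alone, and 0 to 2 when 1 library was left out. At T2 against T1 it was 1 with DESeq2 and 0 to 1 when 1 library was left out. In both comparisons the highest leave-one-out count came without T1 replicate 1. DESeq2 gave no adjusted p for mrps11.L in the comparisons with T1 libraries, nor for 6 members at T2 against input, and mrps33.L did not pass the filter for T2 against T1 with the compared conditions alone. The median of the members at T1 against input was -0.63 with the replicate block and 0.37 to 1.17 when 1 library was left out. With the replicate block mrps35.L was -0.63 at T1 (adjusted p = 0.942) and -3.05 at T2 against input, and mrps33.L was -0.42 at T2. Same-numbered libraries had correlations of their deviations of -0.04 to 0.39, with 5 of 9 over 0.1 and 7 of 9 highest with their own number. The paper reports fewer biologically independent samples than sequencing experiments, so libraries of different conditions may share an extract. Neither the paper's text nor the labels say whether libraries of the same number do, and these correlations do not settle it. The main fit took the libraries as unpaired, so its values ignore any pairing. At T1 against input the members' median and mrps35.L were positive in the main fit and negative with the block. Their direction therefore depends on whether the replicate number is in the fit. The block changed no member's call, since the main fit called none. At T1 against input the block left 0 members at an unadjusted edgeR p-value under 0.05, where the main fit had 2. Of all 20148 genes tested, 5665 had such a p-value with the block and 6525 in the main fit. The T2 against input values near 0 changed sign when single libraries were left out, over -0.52 to 0.45 for mrpl30.S, -0.67 to 0.74 for mrps33.L and -0.89 to 0.68 for mrps35.L, and for T2 against T1 over -1.96 to 0.41 for mrpl48.S (0.41 without T1 replicate 3). The median for T2 against T1 was -0.89 to 0.41 over the same fits. The cause of these changes was not tested. Of the translation factors, 3 were called at T1 with DESeq2, 1 with the compared conditions alone and 0 to 1 when 1 library was left out. Over all genes, the number called at T1 against input was 2320, and it was 5630 with DESeq2, 4013 with the compared conditions alone, 1499 with the block and 417 to 4083 when 1 library was left out. At T2 against input it was 0, and 8 with no filter, 250, 192, 1 and 0 to 34 under the same order of settings. For T2 against T1 it was 20, and 3 with median-of-ratios factors, 91 with library size only, 80 with no filter, 3518 with DESeq2, 0 with the compared conditions, 0 with the block and 0 to 2043 when 1 library was left out. On the whole reads recovered from the normalized values, 2358 genes were called at T1 and 0 at T2 against the input, and 18 between T2 and T1. At T1 depths, 3 reads correspond to 0.0827 to 0.161 CPM, against 0.0319 to 0.0441 CPM in the input, so absence below that level was not detectable.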
